A study of Homo sapiens with 12 samples.

Results

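The genes described here encode parts of the lysosome and of the autophagy machinery. They are 39 genes taken from a list of symbols, out of 60671 genes in the count table. All 39 were matched to 1 identifier each and all 39 were among the 13236 genes tested. RNA was sequenced from BJ-5ta cells, human fibroblasts immortalized with telomerase. Wild-type (WT) cells and ΔLEO1 cells were each grown in 10% fetal bovine serum or held for 10 days in 0.1% serum, which gave 4 groups with 3 libraries each. LEO1 is a subunit of the PAF1 complex, which accompanies RNA polymerase II during elongation, and the ΔLEO1 cells had been made with CRISPR guides to its first exons. Since every ΔLEO1 library was made from 1 clone, variation from clone to clone was not measured, and nothing in the labels says that the libraries of a group came from separate cultures. The p-values therefore measure only the spread between these libraries. The comparisons ask how the genes respond to the quiescence that low serum induces, and whether the loss of LEO1 alters them.

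The lysosome is the acidic compartment where cells break down macromolecules. Its acidity is kept by the vacuolar ATPase, a proton pump of many subunits, and its lumen holds cathepsins, which are mostly proteases, and glycosidases, which remove sugars. In autophagy, a double membrane grows around cytoplasm under the control of the ULK1 kinase and the BECN1 lipid kinase complex, is decorated with lipid-linked ATG8 proteins such as LC3, and fuses with lysosomes. The transcription factors TFEB, TFE3 and MITF bind short DNA elements with the core CACGTG in promoters of many of these genes, and the nutrient-sensing kinase mTORC1 keeps TFEB and TFE3 out of the nucleus by phosphorylation, so that their mRNA level does not show their activity. Starvation of cultured cells is a classical inducer of autophagy.

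The promoters of 5 of the genes are shown because they carry, or in the last case lack, this element. Sequences came from RefSeq on GRCh38.p14 and cover up to 250 bases before the transcription start, less any bases inside the span of the gene itself. They are LAMP1 (chr13:113296989-113297238, plus strand), MCOLN1 (chr19:7522374-7522623, plus strand), GAA (chr17:80101331-80101555, plus strand), NEU1 (chr6:31862907-31863071, minus strand) and MITF (chr3:69739214-69739434, plus strand). Each is written 5′ to 3′ in the direction of its gene, and capitals mark CACGTG with a T before it or an A after it where present.
LAMP1: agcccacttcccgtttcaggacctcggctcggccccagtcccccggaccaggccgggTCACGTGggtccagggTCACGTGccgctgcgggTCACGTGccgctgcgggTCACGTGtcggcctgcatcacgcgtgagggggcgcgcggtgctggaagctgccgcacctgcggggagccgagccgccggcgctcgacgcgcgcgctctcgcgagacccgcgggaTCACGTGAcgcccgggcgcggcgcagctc
MCOLN1: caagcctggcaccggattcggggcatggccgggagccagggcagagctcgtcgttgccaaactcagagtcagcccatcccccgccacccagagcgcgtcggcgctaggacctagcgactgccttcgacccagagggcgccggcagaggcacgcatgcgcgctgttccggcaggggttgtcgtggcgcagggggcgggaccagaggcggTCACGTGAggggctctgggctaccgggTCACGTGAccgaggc
GAA: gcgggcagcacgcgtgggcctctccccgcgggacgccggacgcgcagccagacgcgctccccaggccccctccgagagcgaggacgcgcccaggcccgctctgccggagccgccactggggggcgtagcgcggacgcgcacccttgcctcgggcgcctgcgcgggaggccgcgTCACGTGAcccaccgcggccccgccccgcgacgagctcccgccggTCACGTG
NEU1: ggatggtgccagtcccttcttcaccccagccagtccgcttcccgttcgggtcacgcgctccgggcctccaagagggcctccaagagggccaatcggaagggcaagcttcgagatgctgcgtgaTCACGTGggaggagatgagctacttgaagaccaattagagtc
MITF: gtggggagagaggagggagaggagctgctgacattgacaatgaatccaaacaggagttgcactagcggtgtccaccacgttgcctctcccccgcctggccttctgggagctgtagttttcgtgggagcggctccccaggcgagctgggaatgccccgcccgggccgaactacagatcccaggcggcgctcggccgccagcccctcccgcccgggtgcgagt
The table of promoters held 29 of the 39 genes. For each gene the first entry was used, and its listed transcript start can lie inside the gene. CACGTG, which reads the same on both strands, was found in the 250 bases before the listed start of 8 of these 29 (27.6%). The share over 35116 promoters of that length was 6.34%. The longer TCACGTG, which contains it, was found on either strand in the same number, 8 of 29, against 3.31% of all promoters. The 8 genes were LAMP1 with 5 copies of CACGTG, MCOLN1, CTSA, CTSF and GAA with 2 each, and CTSD, NEU1 and ATP6V0D1 with 1 each. A match describes these letters only and shows no binding. Unlike the sequences above, the windows searched kept bases inside the annotated span of a gene, and at least that of GABARAPL1 lay wholly inside it. A window without a match may therefore leave bases before that span unexamined.

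Gene counts per library ran from 26240632 to 45315560, and ERCC transcripts, synthetic RNAs added to each sample, made up 0.625% to 3.24% of all counts. LEO1 had 851, 935 and 915 counts in the WT libraries in 10% serum and 682 to 1001 in 0.1% serum, against 23 to 55 in the 6 ΔLEO1 libraries. The log2 fold change of ΔLEO1 against WT on the ERCC scale, defined further on, was -4.02 ± 0.49 (SE) in 10% serum and -4.325 ± 0.50 in 0.1% serum (edgeR likelihood ratio test, adjusted p = 2.16e-11 and 1.43e-12). The share of ERCC counts differed widely within groups, most in ΔLEO1 cells in 0.1% serum at 1.88%, 3.24% and 1.09%. The highest-numbered library of each group (numbers 3, 6, 9 and 12) stood apart from the others in some genes, such as ULK1 (values below). Fibroblast markers were abundant in all libraries. Of 8 leukocyte and macrophage markers, whose summed level was 1.58 to 2.36 CPM (counts scaled to a library total of 1000000) in WT and 3.43 to 9.13 CPM in ΔLEO1 libraries, PTPRC was at 1.42 to 7.25 CPM in ΔLEO1 libraries and below 1 CPM in WT. AIF1 and TYROBP were at 0 in every library. The part of these markers in the differences between genotypes was not tested. Epithelial and endothelial markers summed to at most 1.56 and 1.01 CPM. Each gene of the lysosome and autophagy list had between 204 and 66222 counts in every library.

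Values are given on 2 scales. On the ERCC scale, counts were divided by the ERCC counts of the library, so that a change includes any change in the amount of polyadenylated RNA per amount of added ERCC RNA. Fewer cells, less RNA per cell and a different amount of RNA or ERCC put into a library cannot be told apart in such bulk samples. On the TMM scale (trimmed mean of M-values on the genes), levels are CPM, and a change is relative to the other genes of the library. The median of all tested genes on the ERCC scale was -0.97 (log2) for low serum in WT cells and -1.05 in ΔLEO1 cells, and 0.35 and 0.27 for ΔLEO1 against WT in 10% and 0.1% serum. Changes on the ERCC scale are therefore read against these medians. Genes were called at an adjusted p under 0.05.

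In WT cells in 10% serum, PSAP, the precursor of the saposins that assist glycolipid breakdown, had the highest level per length of the 39 genes, at 371 CPM per kilobase of exon on the TMM scale. CTSB followed at 157, CTSZ at 129.8 and CTSK at 93.5 CPM per kilobase, all of them cathepsins. Length was that of all annotated exons of a gene, from every isoform, so ranks between genes also depend on the annotation. The lowest levels per length were those of MITF (2.60), the calcium channel MCOLN1 (2.72), the conjugation enzyme ATG7 (3.54), UVRAG (3.72) and TFEB (3.84). Among the ATG8 genes the order was GABARAPL1 (48.7), MAP1LC3B (26.5), MAP1LC3A (16.7) and GABARAPL2 (14.3 CPM per kilobase). GABARAPL1 spread from 151.7 to 290.7 CPM over its 3 libraries, and per length MAP1LC3A and GABARAPL2 were close. TFE3, at 34.3 CPM per kilobase, was well above the other transcription factors of its family.

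**Figure D1:**
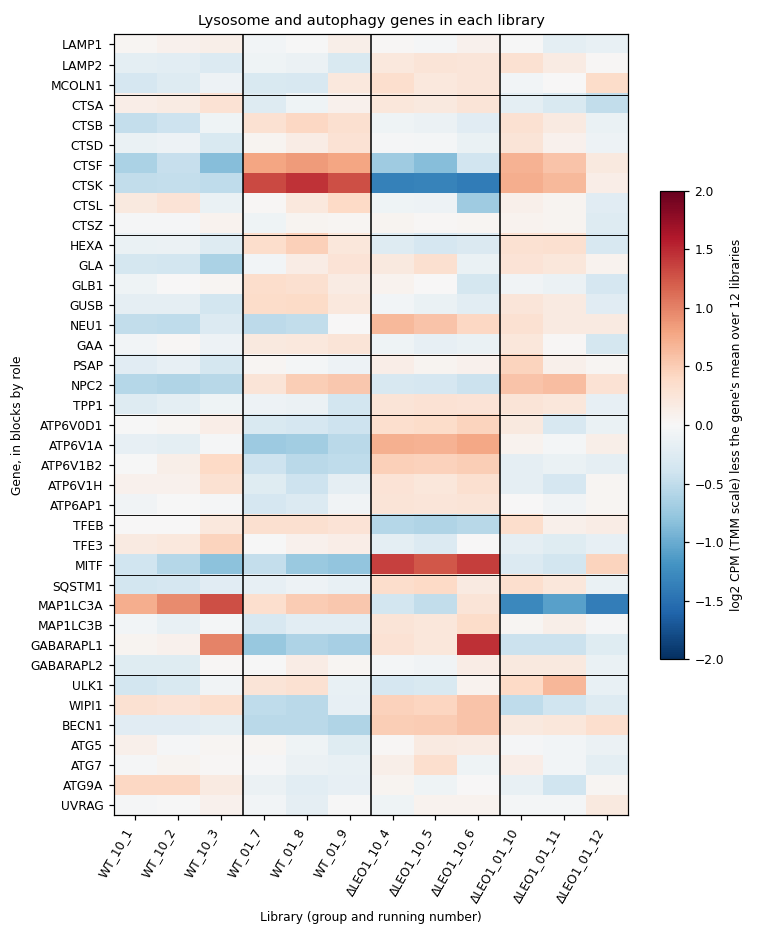
Level of each of the 39 genes (rows, in blocks by role) in each of the 12 libraries (columns), as log2 CPM on the TMM scale less the gene's mean over the libraries, from blue (lower) to red (higher). CTSK and CTSF are red in the 0.1% serum libraries of both genotypes, MITF is red in the 3 ΔLEO1 libraries in 10% serum, and MAP1LC3A is bluest in ΔLEO1 libraries in 0.1% serum.

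In low serum GABARAPL1, WIPI1, MAP1LC3A, BECN1 and 4 of the 5 vacuolar ATPase genes of the list were called lower in both genotypes on both scales. On the TMM scale CTSK, CTSF, NPC2 and HEXA were called higher in both genotypes. With ERCC scaling, 14 of the 39 genes (35.9%) were called lower in WT cells, against a background of 36.1% of all tested genes, and 0 were called higher, against 0.944%. In ΔLEO1 cells 26 of 39 (66.7%) were called lower, against 47.2% of all genes, and 0 higher, against 0.975%. The median change was -0.95 in WT and -1.20 in ΔLEO1 cells, beside the medians of -0.97 and -1.05 over all genes. With the quasi-likelihood test, 10 and 21 genes were called lower and again 0 higher. These counts rested on single libraries. In WT cells the count was 3 without WT library 1, 5 without 2, 3 without 7 and 2 without 9, but 22 without 3. It was 23 and 26 without ΔLEO1 libraries 11 and 12. All groups share an estimate of the spread, but whether that moved the count was not tested. In ΔLEO1 cells it was 6, 15, 4 and 7 without libraries 4, 5, 10 and 11, and 35 without library 12.

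**Figure D2:**
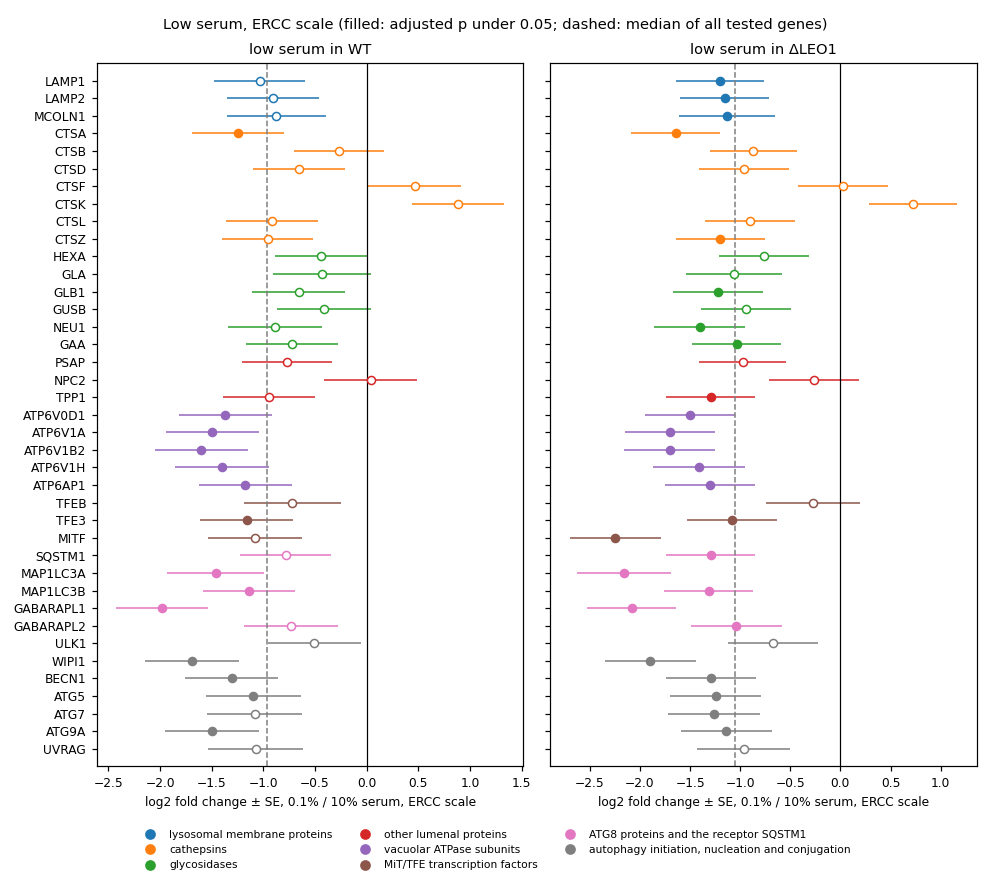
Log2 fold change of each of the 39 genes in 0.1% against 10% serum on the ERCC scale, in WT cells (left) and ΔLEO1 cells (right), coloured by role, with bars of 1 standard error and filled points for an adjusted p under 0.05. Most genes lie near the dashed median of all tested genes (-0.97 and -1.05), the vacuolar ATPase genes lie to its left, and CTSK, CTSF and NPC2 lie to its right.

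With TMM scaling the same low-serum comparisons gave calls in both directions. In WT cells 9 of the 39 genes (23.1%) were lower, against a background of 16.6% of all genes, and 8 (20.5%) were higher, against 16.0%. In ΔLEO1 cells 11 (28.2%) were lower, against 12.9%, and 6 (15.4%) higher, against 16.5%. The median of the 39 genes was 0.00 in WT cells and -0.14 in ΔLEO1 cells. The genes thus did not move as a block, and their roles differed among themselves. Genes singled out on the TMM scale were chosen after their values were seen.

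All 5 genes of vacuolar ATPase subunits were called lower on the ERCC scale in both genotypes. The background there was 36.1% of all tested genes in WT and 47.2% in ΔLEO1 cells. On the TMM scale 4 of 5 in WT cells and 5 of 5 in ΔLEO1 cells were also lower, against 16.6% and 12.9%. Of the further vacuolar ATPase genes outside the list, described below, only ATP6V1D was called lower on that scale in WT cells, and more were in ΔLEO1 cells. ATP6V1A, the catalytic subunit of the peripheral V1 sector, was at 63.0, 62.2 and 69.5 CPM in WT cells in 10% serum and at 42.9, 43.8 and 48.5 CPM in 0.1% serum. In ΔLEO1 cells it was at 116.1, 115.0 and 120.9 CPM in 10% serum and at 74.7, 68.8 and 77.1 CPM in 0.1% serum. The groups of each genotype did not overlap, and the low-serum ΔLEO1 levels overlapped those of WT cells in 10% serum. The change on the ERCC scale was -1.49 ± 0.45 (SE) in WT and -1.70 ± 0.45 in ΔLEO1 cells (adjusted p = 0.00924 and 0.00398, edgeR), and on the TMM scale -0.53 ± 0.11 and -0.68 ± 0.11 (adjusted p = 1.56e-05 and 8.28e-09). ATP6V1B2, another V1 subunit, fell from 48.2, 52.5 and 63.9 CPM to 36.5, 33.3 and 33.9 CPM in WT cells and from 67.3, 66.4 and 68.2 CPM to 42.9, 44.3 and 42.7 CPM in ΔLEO1 cells. Its change on the ERCC scale was -1.60 ± 0.45 in WT and -1.70 ± 0.45 in ΔLEO1 cells (adjusted p = 0.0057 and 0.00421). ATP6V1H, which belongs to V1, and ATP6V0D1, which belongs to the membrane sector, changed by -1.40 and -1.37 on the ERCC scale in WT cells (adjusted p = 0.0163 and 0.0168). The accessory subunit ATP6AP1 was called on the TMM scale in ΔLEO1 cells (-0.26 ± 0.11, adjusted p = 0.0472), where WT cells gave -0.19 ± 0.11 (adjusted p = 0.165). The ERCC-scale calls of ATP6V1A, ATP6V1B2, ATP6V1H and ATP6V0D1 were lost with some single libraries left out, with adjusted p of up to 0.12 in WT cells (without library 9 for all 4), while their direction held in every such fit. On the TMM scale the call of ATP6V1H was lost without library 8 in WT cells and without library 11 in ΔLEO1 cells (adjusted p = 0.0666 and 0.0765), and that of ATP6AP1 in ΔLEO1 cells was lost in 9 of the 12 fits that left out 1 library (adjusted p of up to 0.182).

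Among the 7 cathepsins the changes went in both directions. CTSK (ENSG00000143387, chr1:150796208-150808323 of GRCh38, minus strand), a protease of bone and connective tissue that cleaves collagen, had the most positive change of the 39 genes in both genotypes on either scale. It was at 176.1, 178.6 and 174.9 CPM in WT cells in 10% serum and at 622.4, 675.1 and 606.4 CPM in 0.1% serum. ΔLEO1 cells had 96.9, 98.4 and 93.6 CPM in 10% serum and 411.8, 388.7 and 270.9 CPM in 0.1% serum. The rise on the TMM scale was 1.85 ± 0.15 in WT and 1.89 ± 0.15 in ΔLEO1 cells (adjusted p = 5.26e-31 and 4.04e-32). Its ERCC-scale change was 0.89 ± 0.44 in WT and 0.72 ± 0.44 in ΔLEO1 cells and passed in neither (adjusted p = 0.088 and 0.138). Without the highest-numbered libraries it passed on the ERCC scale in WT cells (0.86 ± 0.36, adjusted p = 0.0286) but not in ΔLEO1 cells (0.33 ± 0.36, adjusted p = 0.374).

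CTSF, another cysteine protease, was at 56.2, 63.3 and 48.6 CPM in WT cells in 10% serum against 151.8, 158.3 and 150.8 CPM in 0.1% serum, and at 53.3, 48.6 and 67.0 CPM against 142.3, 130.3 and 100.4 CPM in ΔLEO1 cells. The rise on the TMM scale was 1.46 ± 0.17 and 1.14 ± 0.17 (adjusted p = 4.39e-16 and 3.53e-10), while on the ERCC scale the change was 0.47 ± 0.45 and 0.02 ± 0.45. CTSB and the aspartic protease CTSD rose on the TMM scale in WT cells, by 0.66 ± 0.15 and 0.34 ± 0.13 (adjusted p = 8.81e-05 and 0.0245), and did not pass in ΔLEO1 cells (0.27 ± 0.15 and 0.15 ± 0.13). The call of CTSD was lost without library 1, 3, 5, 8 or 9 (adjusted p of up to 0.116). Both had negative ERCC-scale values that did not pass in either genotype (-0.27 and -0.66 in WT cells). Of the distinct 58-base stretches in annotated CTSD transcripts, 43.9% also occur in transcripts of other genes, on either strand. The counts of CTSD are therefore uncertain. CTSA, a carboxypeptidase that protects NEU1 and the galactosidase GLB1, went the other way, with -1.25 ± 0.44 in WT and -1.65 ± 0.44 in ΔLEO1 cells on the ERCC scale (adjusted p = 0.0253 and 0.00481). Its ERCC-scale adjusted p in ΔLEO1 cells reached 0.0518 with 1 library left out. CTSA was called lower on the TMM scale in ΔLEO1 cells (-0.55 ± 0.13, adjusted p = 0.00016) and not in WT cells (-0.28 ± 0.13, adjusted p = 0.0731). CTSL and CTSZ had TMM-scale changes between -0.08 and 0.25 that did not pass, although CTSZ was called lower on the ERCC scale in ΔLEO1 cells (-1.20).

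**Figure D3:**
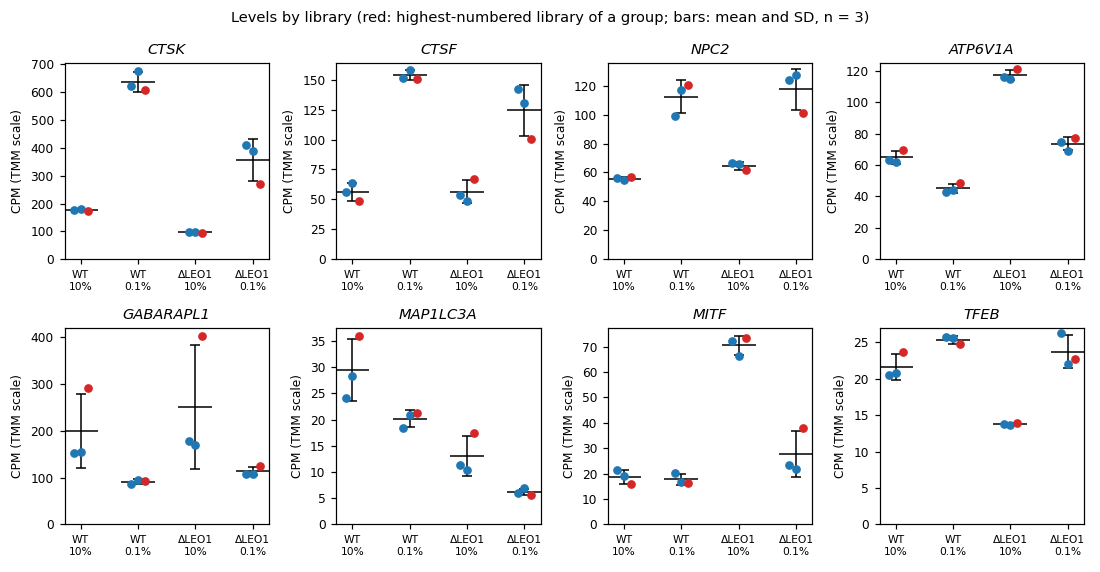
Level of 8 genes in each library in CPM on the TMM scale, by genotype and serum, with the mean and SD of 3 libraries as black bars and the highest-numbered library of each group in red. CTSK, CTSF and NPC2 are higher in 0.1% than in 10% serum in both genotypes, GABARAPL1 is highest in libraries 3 and 6, and MITF is at 66.3 to 73.2 CPM in ΔLEO1 cells in 10% serum and at 15.9 to 38.1 CPM elsewhere.

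The 6 glycosidases and 3 other lumenal proteins included a further gene that stood above the median. NPC2, which hands cholesterol from the lumen to the membrane protein NPC1, was at 55.9, 54.8 and 56.7 CPM in WT cells in 10% serum and at 99.4, 116.7 and 120.8 CPM in 0.1% serum. In ΔLEO1 cells it was at 66.3, 65.6 and 61.6 CPM against 123.6, 127.7 and 101.2 CPM. The groups did not overlap in either genotype, and the rise on the TMM scale was 1.01 ± 0.12 and 0.87 ± 0.12 (adjusted p = 5.27e-14 and 1.91e-10). Its ERCC-scale values were 0.04 ± 0.45 and -0.27 ± 0.45. GLA, GUSB and HEXA, which remove galactose, glucuronate and hexosamine residues, rose in WT cells on the TMM scale by 0.57 ± 0.17, 0.56 ± 0.14 and 0.52 ± 0.16 (adjusted p = 0.003, 0.000399 and 0.00607). Of these, HEXA also rose in ΔLEO1 cells (0.43 ± 0.16, adjusted p = 0.0311), where GLA and GUSB gave 0.05 and 0.21. All 3 had negative ERCC-scale values that did not pass. HEXA was lower in ΔLEO1 library 12, at 89.8 CPM, than in libraries 10 and 11, at 139.1 and 140.4 CPM, and its call was lost in ΔLEO1 cells without library 4, 5, 6, 10 or 11 (adjusted p of up to 0.187) and in WT cells without library 8 (adjusted p = 0.0517). NEU1, which removes sialic acid, GLB1 and the glycogen-degrading GAA were called lower in ΔLEO1 cells on the ERCC scale (-1.40, -1.22 and -1.03) and not on the TMM scale. The protease TPP1 was likewise called lower in ΔLEO1 cells on the ERCC scale (-1.29) and not on the TMM scale (-0.16). PSAP had 0.21 and 0.11 on the TMM scale and was not called.

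Of the lysosomal membrane proteins, LAMP1 and LAMP2, abundant glycoproteins of the lysosomal membrane, and MCOLN1 changed about as much as the median gene. Their changes on the ERCC scale lay between -1.03 and -0.87 in WT cells, where 0 of 3 were called, and between -1.20 and -1.13 in ΔLEO1 cells, where 3 of 3 were called. Of all tested genes, 36.1% in WT and 47.2% in ΔLEO1 cells were called lower on that scale. Their TMM-scale changes lay between -0.15 and 0.12 and 0 of 3 were called in either genotype. LAMP1 was at 415.0, 426.1 and 435.3 CPM in WT cells in 10% serum and at 388.6, 399.5 and 436.5 CPM in 0.1% serum, so the groups overlapped.

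The ATG8 genes differed from one another. GABARAPL1 (ENSG00000139112, chr12:10212458-10223130, plus strand), an ATG8 protein of the GABARAP branch, had the most negative change of the 39 genes in WT cells. It was at 151.7, 154.7 and 290.7 CPM in WT cells in 10% serum and at 86.8, 95.6 and 92.2 CPM in 0.1% serum, and at 179.2, 170.1 and 403.7 CPM against 108.7, 108.7 and 124.0 CPM in ΔLEO1 cells. Libraries 3 and 6 were thus far above the other libraries in 10% serum, yet all 6 libraries in 10% serum were above all 6 in 0.1% serum. The change on the ERCC scale was -1.98 ± 0.45 in WT and -2.08 ± 0.45 in ΔLEO1 cells (adjusted p = 0.000418 and 0.000286), and the call held with each library left out. The TMM-scale change was -1.12 ± 0.32 and -1.14 ± 0.32 (adjusted p = 0.00335 and 0.0031), and -0.75 ± 0.07 and -0.68 ± 0.07 without the highest-numbered libraries. MAP1LC3A, or LC3A (ENSG00000101460, chr20:34546854-34560345, plus strand), was at 24.1, 28.3 and 35.9 CPM in WT cells in 10% serum and at 18.4, 20.9 and 21.3 CPM in 0.1% serum. In ΔLEO1 cells it was at 11.4, 10.4 and 17.4 CPM and then at 5.99, 6.90 and 5.64 CPM, so that neither genotype's groups overlapped. Its change was -1.46 ± 0.47 in WT and -2.16 ± 0.47 in ΔLEO1 cells on the ERCC scale (adjusted p = 0.0149 and 0.000451) and -0.55 ± 0.21 and -1.08 ± 0.22 on the TMM scale (adjusted p = 0.0335 and 1.24e-05). In WT cells its calls were lost with some single libraries left out, with adjusted p of up to 0.103 on the ERCC scale and 0.181 on the TMM scale.

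MAP1LC3B, or LC3B, the usual marker protein of autophagosomes, followed the median gene. It changed by -1.14 ± 0.45 in WT and -1.32 ± 0.45 in ΔLEO1 cells on the ERCC scale (adjusted p = 0.0388 and 0.0194) and by -0.17 ± 0.10 and -0.24 ± 0.10 on the TMM scale (adjusted p = 0.201 and 0.0624). With 1 library left out, its adjusted p on the ERCC scale reached 0.193 in WT and 0.115 in ΔLEO1 cells. GABARAPL2 changed by -0.73 ± 0.45 and -1.04 ± 0.45 on the ERCC scale (adjusted p = 0.157 and 0.0495), whereas on the TMM scale its values were positive, 0.20 ± 0.14 and 0.08 ± 0.14, and did not pass. Its ERCC-scale adjusted p in ΔLEO1 cells reached 0.179 with 1 library left out. SQSTM1, or p62, the receptor that links ubiquitinated cargo to ATG8 proteins, was called lower in ΔLEO1 cells on the ERCC scale (-1.30 ± 0.44, adjusted p = 0.0195) and was not called on the TMM scale (0.17 and -0.15). Stretches shared with other genes made up 5.52% of those of GABARAPL1, 5.18% of those of MAP1LC3B and 19.5% of those of SQSTM1.

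The genes for initiation, nucleation and conjugation were led by WIPI1. Its mRNA, which encodes a protein that binds a phosphoinositide on the growing membrane, was at 45.6, 45.1 and 46.8 CPM in WT cells in 10% serum and at 26.1, 25.6 and 33.3 CPM in 0.1% serum. In ΔLEO1 cells it was at 50.9, 49.9 and 55.1 CPM against 25.97, 28.1 and 30.9 CPM, so that the 2 serum levels did not overlap in either genotype. Its change was -1.69 ± 0.46 and -1.90 ± 0.46 on the ERCC scale (adjusted p = 0.00361 and 0.00144) and -0.69 ± 0.13 and -0.88 ± 0.13 on the TMM scale (adjusted p = 2.37e-06 and 1.15e-09). BECN1 was also lower in both genotypes on both scales, by smaller amounts on the TMM scale (-0.34 ± 0.10 and -0.27 ± 0.10, adjusted p = 0.00287 and 0.0251), where its call in ΔLEO1 cells was lost without library 4, 5, 6, 10 or 11 (adjusted p of up to 0.115). ATG9A, the transmembrane protein of the vesicles that seed autophagosomes, was lower in both genotypes on the ERCC scale (-1.50 ± 0.46 and -1.14 ± 0.46, adjusted p = 0.00974 and 0.036), but on the TMM scale in WT cells (-0.50 ± 0.13) and not in ΔLEO1 cells (-0.15 ± 0.13). Its ERCC-scale adjusted p in WT cells reached 0.0895 with 1 library left out. Reads of other genes could be counted in WIPI1, BECN1 and ATG9A, since shared stretches made up 22.8%, 12.9% and 32.9% of theirs.

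ULK1, the kinase that starts autophagy, lay on the other side of the median. It was at 65.3, 68.1 and 80.6 CPM in WT cells in 10% serum and at 101.1, 104.2 and 76.6 CPM in 0.1% serum, and at 66.8, 68.1 and 88.8 CPM against 111.3, 133.3 and 75.8 CPM in ΔLEO1 cells. Libraries 9 and 12 were lower than the other libraries in 0.1% serum and libraries 3 and 6 higher than the others in 10% serum, so the groups overlapped in both genotypes. ULK1 was called higher on the TMM scale in ΔLEO1 cells (0.52 ± 0.21, adjusted p = 0.0457) and not in WT cells (0.40 ± 0.21, adjusted p = 0.133), and the adjusted p in ΔLEO1 cells reached 0.289 with 1 library left out. The ERCC-scale values were -0.51 in WT and -0.67 in ΔLEO1 cells and did not pass. ATG5 and ATG7, which attach ATG8 proteins to lipid, and UVRAG, a partner of BECN1, had TMM-scale changes between -0.18 and 0.03, and none was called on that scale.

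**Figure D4:**
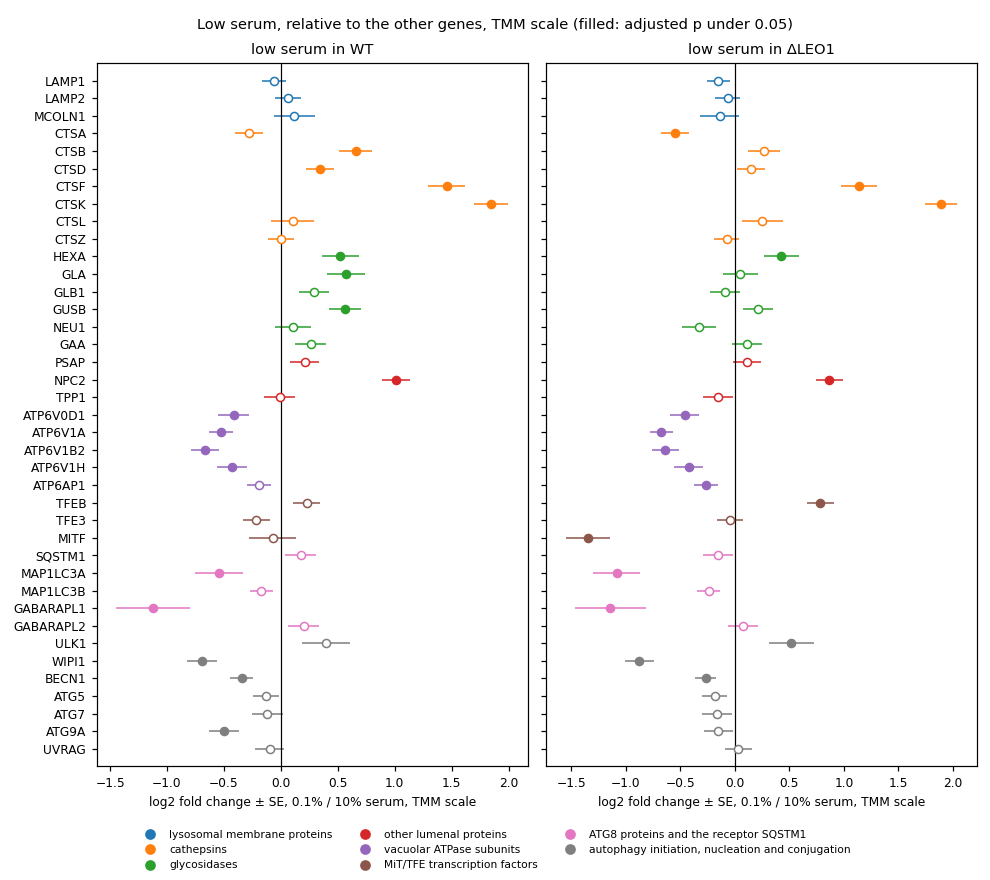
Log2 fold change of each of the 39 genes in 0.1% against 10% serum on the TMM scale, in WT cells (left) and ΔLEO1 cells (right), coloured by role, with bars of 1 standard error and filled points for an adjusted p under 0.05. CTSK, CTSF and NPC2 lie farthest right in WT cells (1.85, 1.46 and 1.01), GABARAPL1 lies farthest left there (-1.12), and MITF lies far left in ΔLEO1 cells (-1.35) but near 0 in WT cells (-0.07).

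The 3 transcription factors of the MiT/TFE family did not move together. MITF (ENSG00000187098, chr3:69739435-69968337, plus strand) was at 21.2, 18.9 and 15.9 CPM in WT cells in 10% serum and at 20.2, 16.8 and 16.3 CPM in 0.1% serum, so the groups overlapped. In ΔLEO1 cells it was at 72.3, 66.3 and 73.2 CPM in 10% serum and at 23.4, 21.9 and 38.1 CPM in 0.1% serum. The 3 ΔLEO1 libraries in 10% serum were above all other libraries. Low serum changed MITF by -1.08 ± 0.46 in WT and -2.25 ± 0.46 in ΔLEO1 cells on the ERCC scale (adjusted p = 0.0508 and 0.000121), and by -0.07 ± 0.21 and -1.35 ± 0.20 on the TMM scale (adjusted p = 0.825 and 2.86e-09). TFEB was at 20.6, 20.7 and 23.7 CPM in WT cells in 10% serum and at 25.7, 25.6 and 24.8 CPM in 0.1% serum. In ΔLEO1 cells TFEB was at 13.8, 13.6 and 14.0 CPM in 10% serum and at 26.3, 22.1 and 22.8 CPM in 0.1% serum. Its low-serum values were negative and did not pass on the ERCC scale (-0.72 ± 0.47 in WT and -0.28 ± 0.47 in ΔLEO1 cells, adjusted p = 0.173 and 0.587), but positive on the TMM scale, where ΔLEO1 cells passed (0.78 ± 0.12, adjusted p = 6.59e-09) and WT cells did not (0.23 ± 0.12, adjusted p = 0.143). TFE3 was called lower in both genotypes on the ERCC scale (-1.16 ± 0.45 and -1.08 ± 0.45, adjusted p = 0.0361 and 0.0408) and in neither on the TMM scale (-0.22 and -0.05). With 1 library left out, its adjusted p on the ERCC scale reached 0.163 in WT and 0.167 in ΔLEO1 cells.

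The comparison of ΔLEO1 with WT cells in 10% serum asks what the loss of LEO1 changes in growing cells. On the ERCC scale 0 of the 39 genes were called lower, against a background of 4.64% of all tested genes, and 2 were called higher, against 4.20%. These were MITF and NEU1. The median of the 39 genes was 0.48 beside 0.35 for all genes. MITF was 2.23 ± 0.46 log2 units higher on the ERCC scale (adjusted p = 8.01e-05) and 1.92 ± 0.20 higher on the TMM scale (adjusted p = 2.59e-18), and it was called with each library left out. MITF is transcribed from several promoters, and counts per gene do not tell its isoforms apart. NEU1 (ENSG00000204386, chr6:31857659-31862906, minus strand) was at 21.8, 21.7 and 25.4 CPM in WT and at 48.3, 45.9 and 41.0 CPM in ΔLEO1 cells. It was 1.36 ± 0.46 higher on the ERCC scale (adjusted p = 0.0416) and 0.97 ± 0.16 higher on the TMM scale (adjusted p = 6.83e-09). The ERCC-scale call of NEU1 was absent with the quasi-likelihood test, where 1 gene was called, and with WT library 1, 2, 3, 7 or 8 or ΔLEO1 library 4, 5 or 10 left out, again with 1 gene called, whereas 4 and 5 genes were called without ΔLEO1 libraries 11 and 12.

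On the TMM scale 14 genes (35.9%) were higher in ΔLEO1 cells in 10% serum, against 17.7% of all genes, and 5 (12.8%) were lower, against 21.8%. The higher genes included 4 of 5 vacuolar ATPase genes, 2 of 3 lysosomal membrane genes and BECN1. ATP6V1A was 0.86 ± 0.11 higher (adjusted p = 2.64e-14), and its ΔLEO1 levels of 115.0 to 120.9 CPM did not overlap the WT levels of 62.2 to 69.5 CPM. BECN1 was at 72.3, 71.9 and 73.7 CPM in WT and at 118.3, 120.5 and 124.9 CPM in ΔLEO1 cells, 0.74 ± 0.10 higher (adjusted p = 8.16e-13). SQSTM1 was 0.62 ± 0.14, LAMP2 0.47 ± 0.11 and MAP1LC3B 0.37 ± 0.10 higher (adjusted p = 3.29e-05, 0.000261 and 0.00161). The lower genes were MAP1LC3A (-1.17 ± 0.21), CTSK (-0.87 ± 0.15), TFEB (-0.65 ± 0.12), TFE3 (-0.43 ± 0.12) and ATG9A (-0.34 ± 0.13), with adjusted p of 3.74e-07, 5.74e-08, 8.97e-07, 0.0013 and 0.0275. These 5 did not pass on the ERCC scale, with values of -0.81, -0.53, -0.29, -0.07 and -0.01. GABARAPL1 and GABARAPL2 were not called on either scale, with ERCC-scale values of 0.71 ± 0.45 and 0.53 ± 0.45 and TMM-scale values of 0.34 ± 0.32 and 0.16 ± 0.14. MAP1LC3B was not called on the ERCC scale (0.71 ± 0.45, adjusted p = 0.44). The count of higher genes was 9 without WT library 1 or without ΔLEO1 library 4 or 5, and among the vacuolar ATPase genes the calls of ATP6V0D1, ATP6V1B2 and ATP6AP1 were lost in some such fits (adjusted p of up to 0.149, 0.226 and 0.0942). The calls of MCOLN1, PSAP and, on the lower side, ATG9A were likewise lost in some of them, among others without library 1, 4 or 5 (adjusted p of up to 0.103, 0.108 and 0.124).

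**Figure D5:**
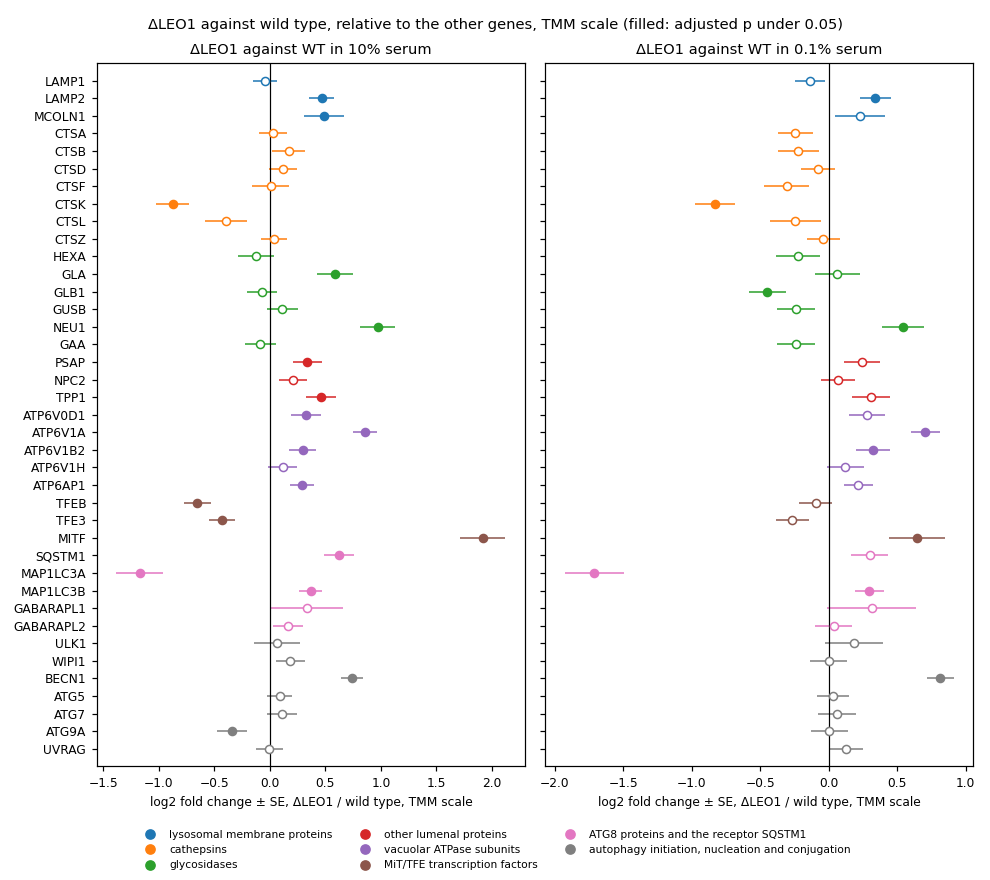
Log2 fold change of each of the 39 genes in ΔLEO1 against WT cells on the TMM scale, in 10% serum (left) and 0.1% serum (right), coloured by role, with bars of 1 standard error and filled points for an adjusted p under 0.05. MITF lies farthest right in 10% serum (1.92), MAP1LC3A lies farthest left in both panels (-1.17 and -1.71), and ATP6V1A and BECN1 lie to the right of 0 in both.

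In 0.1% serum the comparison of genotypes called 1 of the 39 genes lower on the ERCC scale, against a background of 3.59%, and 0 higher, against 3.85%. The gene was MAP1LC3A, at -1.51 ± 0.47 (adjusted p = 0.0272), and its ERCC-scale call was lost without WT library 7 or 8 or ΔLEO1 library 5, 10 or 11. Without ΔLEO1 library 11, 4 genes were called higher. The quasi-likelihood test also called 1 lower and 0 higher. MAP1LC3A was at -1.71 ± 0.22 on the TMM scale (adjusted p = 3.05e-13), and its levels of 5.64 to 6.90 CPM in ΔLEO1 cells did not overlap the 18.4 to 21.3 CPM of WT cells. Altogether 3 genes were lower on that scale, against 17.6% of all genes, and 7 were higher, against 15.4%. The other lower genes were CTSK (-0.83 ± 0.15, adjusted p = 3.42e-07) and GLB1 (-0.45 ± 0.14, adjusted p = 0.00456). The higher genes were BECN1 (0.82 ± 0.10, adjusted p = 5.02e-15), ATP6V1A (0.71 ± 0.11, adjusted p = 1.29e-09), MITF (0.64 ± 0.21, adjusted p = 0.00803), NEU1 (0.54 ± 0.16), LAMP2 (0.34 ± 0.12), ATP6V1B2 (0.33 ± 0.12) and MAP1LC3B (0.30 ± 0.10). The calls of 4 of these 7 were lost with single libraries left out. MITF lost its call without library 8 or 12 (adjusted p of up to 0.0628, lowest value 0.347), LAMP2 without 9 or 10 (0.0959), ATP6V1B2 without 8, 9, 10 or 11 (0.123) and MAP1LC3B without 7 or 11 (0.091), and the count of higher genes ran from 5 to 9. All 7 of these, and MAP1LC3A and CTSK on the lower side, were also called on the TMM scale in 10% serum. The comparisons use different libraries of the same clone, so both carry whatever is particular to that clone. None of the other transcription factor and ATG8 genes passed on the ERCC scale. TFEB was at 0.16 ± 0.47, TFE3 at 0.01 ± 0.45, MITF at 1.06 ± 0.46, MAP1LC3B at 0.53 ± 0.45, GABARAPL1 at 0.61 ± 0.45 and GABARAPL2 at 0.22 ± 0.45, and all 6 were negative without the highest-numbered libraries, where the median of all genes was also negative (-0.42).

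The interaction asks whether the response to low serum differed between the genotypes. On the ERCC scale 0 of the 39 genes were called, against a background of 0.219%, with 0 also by the quasi-likelihood test. On the TMM scale 2 were called, against 4.08%. MITF had a more negative response in ΔLEO1 than in WT cells (-1.275 ± 0.29, adjusted p = 0.000933), and TFEB had a more positive one (0.558 ± 0.17, adjusted p = 0.0343), whose call was lost with most libraries left out in turn (adjusted p of up to 0.141). Their ERCC-scale values were -1.16 ± 0.65 and 0.44 ± 0.66. The responses of the vacuolar ATPase genes differed between genotypes by -0.15 to 0.03 on the TMM scale, and that of CTSK by 0.04 ± 0.21.

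The 8 genes with CACGTG in the searched window are described by their calls, beside the background shares given with each comparison above. On the TMM scale 1 was lower and 2 were higher in low serum in WT cells, and 2 were lower and 1 higher in ΔLEO1 cells. Against WT, 0 were lower and 3 higher in ΔLEO1 cells in 10% serum and 0 and 1 in 0.1% serum. Their median change in low serum was 0.11 in WT and -0.15 in ΔLEO1 cells, beside -0.01 and -0.15 for the 21 genes whose searched window lacked it. LAMP1, with its 5 copies, was not called on the TMM scale in any comparison, and MITF, with some of the larger changes, had none in its window. The window of GABARAPL1 (chr12:10212627-10212876) had none either. It lay inside the annotated span of that gene, so the bases before the span were not examined. The same may hold for others of the 21 genes, which are therefore not shown to lack the element.

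A longer list of 130 other genes of the pathway, of which 123 were tested, was compared in the same way. With ERCC scaling 46 (37.4%) were lower and 0 higher in low serum in WT cells (median -1.03), against 36.1% lower among all genes, and 74 (60.2%) were lower and 0 higher in ΔLEO1 cells (median -1.11), against 47.2%. With TMM scaling 23 (18.7%) were lower and 11 (8.94%) higher in WT cells, against 16.6% and 16.0%, and 26 (21.1%) were lower and 12 (9.76%) higher in ΔLEO1 cells, against 12.9% and 16.5%. The sorting receptor SORT1 fell by 2.12 on the TMM scale in WT cells (adjusted p = 7.58e-17) and by 1.12 in ΔLEO1 cells (adjusted p = 2.32e-05), and the mitophagy receptor BNIP3 fell by 1.92 and by 0.66 (adjusted p = 3.33e-12 and 0.0308). Among 31 further hydrolases and cofactors, 6 were lower and 8 higher in WT cells, with CTSS and CTSC higher by 1.84 and 1.05 (adjusted p = 3.08e-05 and 1.29e-09). Of 11 further vacuolar ATPase genes, 1 was lower on the TMM scale in WT cells (ATP6V1D, -0.57) and 6 in ΔLEO1 cells, with 0 higher in either.

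Between genotypes, 17 of the 31 other hydrolases and cofactors (54.8%) were lower in ΔLEO1 cells in 10% serum on the TMM scale, against 21.8% of all genes, and 5 (16.1%) were higher, against 17.7%. In 0.1% serum 15 (48.4%) were lower, against 17.6%, and 2 (6.45%) higher, against 15.4%. CTSO, a cathepsin, was -1.81 ± 0.15 and -1.67 ± 0.15 (adjusted p = 2.72e-29 and 2.06e-25), and SUMF1, which activates the sulfatases, was -1.62 ± 0.11 and -1.12 ± 0.11. Only 1 and 2 of the 31 were called on the ERCC scale, CTSO in both and CTSS in 0.1% serum. All 123 genes together gave 26 lower and 17 higher in 10% serum and 21 and 11 in 0.1% serum on the TMM scale. The interaction on that scale was called for 4 of the 123 (3.25%), against 4.08% of all tested genes. The called genes were the cathepsin CTSH (1.73), BNIP3 (1.26), SORT1 (1.01) and SUMF1 (0.50), all more positive in ΔLEO1 cells.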

How the data were processed

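RNA from 12 libraries was sequenced after a stranded mRNA kit with ERCC spike-ins. The authors deposited raw counts per gene, which were used as deposited. Per the labels and the submitters' processing notes, reads were aligned with STAR 2.7.10a to GRCh38 and counted with featureCounts 1.5.1. The annotation release and strand setting are not given in the sources used here, so overlapping and antisense genes are uncertain. Counts were fitted with edgeR 4.0.16 in R 4.3.3, with a likelihood ratio test over 4 groups, genes above 1 CPM in at least 3 libraries, and Benjamini-Hochberg adjustment over all 13236 tested genes. Library sizes were ERCC totals times their TMM factors (ERCC scale) or gene totals times TMM factors (TMM scale). Alternatives were the quasi-likelihood test, DESeq2 1.42.0, no filter, leaving out or modelling the highest-numbered libraries, and leaving out each library. Scripts were tested on simulated data. Members and gene lists were chosen with earlier results of these data known. Genes were named by rule where called and among the 8 farthest from the median of all genes, with the MiT/TFE and ATG8 genes always named. Others, including those named on the TMM scale, were chosen after their values were seen.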

Additional observations from a re-analysis of the deposited data

Results flagged for a closer look

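The response of MITF to low serum differed between the genotypes on the TMM scale by -1.275 log2 units (edgeR likelihood ratio test, adjusted p = 0.000933), with -1.35 in ΔLEO1 and -0.07 in WT cells. On the ERCC scale the difference was -1.16 and was not called (adjusted p = 1), but it was called there without the highest-numbered libraries (-2.17, adjusted p = 0.00579). For TFEB the difference on the TMM scale was 0.558 (adjusted p = 0.0343), with 0.78 in ΔLEO1 and 0.23 in WT cells, and on the ERCC scale it was 0.44 (adjusted p = 1). With the quasi-likelihood test on the TMM scale, 1 of these 2 genes was called, MITF. Groups of 3 libraries were too small for a test of single libraries that stand apart.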

How the results depend on the processing

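No paired analysis was possible because the replicate numbers run from 1 to 12 and the groups share none. Counts of the 39 genes depended on the scale and on single libraries, and the cause was not tested. The shares of all tested genes given above belong to the main fits on the 2 scales. Counts from the other fits therefore describe those fits and are not read as results about these genes. With TMM on the genes in place of ERCC, low serum gave 9 lower and 8 higher in WT cells and 11 lower and 6 higher in ΔLEO1 cells, ΔLEO1 against WT gave 5 lower and 14 higher in 10% serum and 3 lower and 7 higher in 0.1% serum, and the interaction gave 2. Without the filter, which tests more genes, low serum gave 9 lower in WT and 16 in ΔLEO1 cells, and 1 was higher in ΔLEO1 cells in 10% serum, as with the quasi-likelihood test (1) and with a covariate for the highest-numbered libraries (1). Without these libraries, low serum gave 28 lower and 1 higher in WT cells, ΔLEO1 against WT gave 1 lower and 4 higher in 10% serum and 2 lower in 0.1% serum, and the interaction gave 1. Leaving out 1 library at a time, low serum gave 2 to 26 lower and 0 to 1 higher in WT cells and 4 to 35 lower in ΔLEO1 cells. In the same fits ΔLEO1 against WT gave 1 to 5 higher in 10% serum and 0 to 1 lower and 0 to 4 higher in 0.1% serum, and the interaction 0 to 1. On the TMM scale without the highest-numbered libraries, low serum gave 14 higher in WT and 12 in ΔLEO1 cells, ΔLEO1 against WT gave 8 lower in 10% serum and 6 lower (5 with the covariate) and 16 higher in 0.1% serum, and the interaction gave 9 (1 with the quasi-likelihood test). With 1 library left out on that scale, 9 to 14 were higher in 10% serum and the interaction gave 1 to 2. Directions reversed from the ERCC scale with TMM on the genes for TFEB (0.225 in WT, 0.783 in ΔLEO1 cells) and GABARAPL2 (0.202 and 0.076) in low serum, and for TFEB (-0.096) and TFE3 (-0.264) between genotypes in 0.1% serum. Without the highest-numbered libraries the genotype difference in 0.1% serum was -0.489 for TFEB, -0.685 for TFE3 (-0.014 with the covariate), -0.121 for MITF, -0.107 for MAP1LC3B, -0.193 for GABARAPL1 and -0.32 for GABARAPL2. With 1 library left out it ran from -0.317 to 0.493 for TFEB, -0.548 to 0.336 for TFE3, -0.035 to 0.945 for GABARAPL1 and -0.151 to 0.498 for GABARAPL2. TFE3 ran from -0.221 to 0.107 in 10% serum, and TFEB from -0.75 to 0.059 for low serum in ΔLEO1 cells. These reversals concern values that were not called on the ERCC scale, except GABARAPL2 in ΔLEO1 cells.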
